A study of Mus musculus with 6 samples.

Results

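The tRNA fragments described here are the 68 small RNAs whose names begin with tRF-Leu or tRF-Ser, 33 of leucine tRNAs and 35 of serine tRNAs. They were taken by name, with earlier results of these data known, from 498 listed tRNA-derived small RNAs (tsRNAs) and 2334 small RNAs in all. The tsRNA list held 460 rows named tRF (tRNA fragments) and 38 named tiRNA (longer pieces cut in the anticodon loop). Small RNAs were sequenced from mouse RPE-choroid-sclera complexes, the retinal pigment epithelium (RPE) with the vascular and fibrous coats behind it. In the choroidal neovascularization (CNV) group, eyes received 25 burns from a 532 nm laser (100 mW, 0.1 s, 50 µm), which breaks the membrane under the RPE so that choroidal vessels grow in. Eyes were removed 7 days after the laser. Control mice were of the same age and had no laser. All mice were male and 7 to 8 weeks old, and the labels name no genotype, strain or agent. Each group had 3 libraries, and each library was a pool of 4 eyes. Inserts ran from 14 to 40 nucleotides in every library, which bounds the pieces that could be counted. The labels do not say whether mice contributed to more than a single pool, so p-values reflect variation among these pools, technical variation included.

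Leucine and serine tRNAs of the cytosol are class II tRNAs, in which a long variable arm stands between the anticodon arm and the T arm. In most other tRNAs this arm is a short loop. The long arm is the feature by which seryl-tRNA synthetase recognises its tRNAs, and neither enzyme of the pair relies on the anticodon alone, which differs among the tRNAs of each amino acid. Cells cut tRNAs and their precursors into fragments that can associate with Argonaute proteins or with the translation machinery. In human cells a fragment cut from the trailer of the serine TGA precursor was among the early tRFs described, and a fragment from the 3′ end of leucine CAG tRNA has been reported to aid translation of a ribosomal protein mRNA. The serial number in each name here stands for a fragment whose sequence and position were not used, so which of these forms a row holds is not known.

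RefSeq's annotation of mouse assembly GRCm38.p6 was read for the tRNA genes behind these names. It listed 25 leucine and 22 serine tRNA genes whose symbols give amino acid and anticodon. The leucine genes were 82 to 107 bases long (median 83) and the serine genes 73 to 82 (median 82), against a median of 72 over 355 genes of other amino acids. Leucine CAA genes were the longest, 105 to 107 bases. These genes carry an intron, which is removed in the mature tRNA. The serine exception was the single GGA gene of 73 bases, and no fragment in the list was named for it. Among the other amino acids 18 genes reached 82 bases or more. Each anticodon that has a fragment here thus had annotated genes of 82 bases or more. A further 28 genes with mitochondrial or other symbols were not assigned. The fragment names do not tell cytosolic from mitochondrial tRNAs, so some rows may not come from long-arm tRNAs.

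The libraries held 5321436 to 5820315 counts in CNV and 5057142 to 12839386 in control, where replicate 2 was the deepest. Levels below are CPM, counts relative to the library total scaled by trimmed mean of M-values (TMM) factors over miRNAs and tsRNAs together. They are not divided by length, since each count is a whole small RNA. RPE miRNAs miR-204-5p and miR-211-5p summed to 4522 to 6499 CPM in CNV pools and 6768 to 6985 in control pools. The sums of 3 photoreceptor miRNAs were 24736 to 49473 CPM in CNV and 49348 to 75779 in control, those of 3 neuron miRNAs 7818 to 12483 and 13852 to 21019, and those of 3 myeloid miRNAs 474 to 740 and 281 to 352. The groups overlapped for endothelial miRNAs (35449 to 42881 CPM in CNV and 35246 to 45069 in control) and skeletal muscle miRNAs (57437 to 90589 and 34304 to 91114). They also overlapped for an erythrocyte miRNA (449 to 2935 and 599 to 1461) and lens and cornea miRNAs (11152 to 28384 and 9748 to 15497). No marker in these lists passed the test described below or was at 0 in a library. Their part in the values below was not tested, and in whole tissue fewer cells of a type cannot be told apart from less RNA per cell.

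The 68 fragments took a small share of the listed tsRNA counts. They were 13.7% of the tsRNA rows, but held 0.788%, 0.823% and 1.66% of the tsRNA counts in CNV replicates 1 to 3 and 1.47%, 2.29% and 1.76% in control replicates 1 to 3. CNV replicates 1 and 2 lay below every control pool and CNV replicate 3 lay among them. The deposited per-million column implies larger tsRNA totals than the listed counts. In CNV these were 837945, 907224 and 698828, with 512672, 563957 and 366077 listed. In control they were 673197, 1540951 and 586937, with 338533, 613855 and 257982 listed. The listed part was thus larger in every CNV pool than in every control pool, and the shares here are of listed counts only. In the same libraries glycine tRFs and tiRNAs, the bulk of the tsRNAs, held 85.2%, 84.5% and 79.1% of the tsRNA counts in CNV and 77.7%, 72.1% and 76.1% in control. With glycine left out of the total, the 68 fragments held 5.32%, 5.33% and 7.95% in CNV and 6.58%, 8.20% and 7.35% in control. Among 21 amino acid labels of tRF rows, serine held rank 5 and leucine rank 11 by mean share of counts. By number of rows serine held rank 2 and leucine, level with glutamate, rank 3.

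Relative to the whole library rather than to the tsRNAs, the level of the 68 fragments overlapped between groups. Their sum was 786, 924 and 1044 CPM in CNV pools and 859, 1009 and 927 CPM in control pools. In CNV the mean was 918 ± 129 CPM, against 932 ± 75.1 CPM in control (SD, n = 3 each). The remaining 430 tsRNAs summed to 98964, 111326 and 61902 CPM in CNV and 57542, 43122 and 51751 CPM in control. For those tsRNAs all 3 CNV pools were above all control pools, while the sums of the leucine and serine fragments overlapped. Scaled by total counts alone, those tsRNAs overlapped too, since CNV replicate 3 was at 63641 CPM and control replicate 1 at 63831 CPM. Glycine rows held 72.1% to 85.2% of the tsRNA counts of a library, so the sum of the 430 is mostly glycine. With glycine left out, the rest of the 430 overlapped in TMM-scaled CPM, since CNV replicate 3 lay below control replicate 1. The difference between these patterns was not tested.

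**Figure D1:**
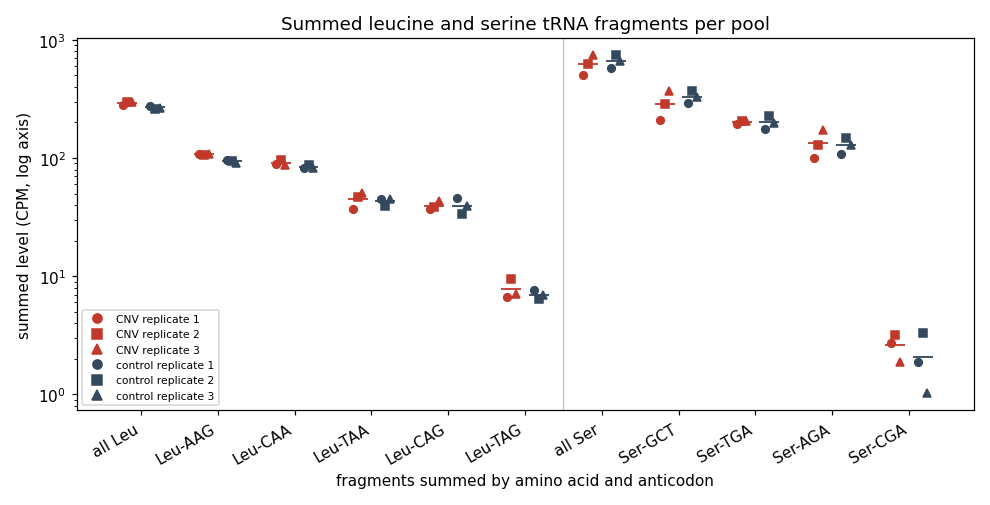
Summed level of the leucine and serine fragments, in all and by anticodon, in CPM on a log axis. Each point is a pool of 4 eyes (CNV red and on the left, control dark), and the line is the mean of 3 pools. Serine fragments ran from 506 to 748 CPM in CNV and from 581 to 748 CPM in control, and leucine fragments from 279 to 298 and from 261 to 278 CPM.

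Leucine fragments were less abundant than serine fragments and varied less between pools. They summed to 279, 298 and 296 CPM in CNV and 278, 261 and 266 CPM in control, so all CNV pools were higher than all control pools, by a ratio of means of 1.08. The gap between the lowest CNV pool and the highest control pool was 1.48 CPM. Scaled by total counts alone, the groups overlapped, at 247, 282 and 305 CPM in CNV and 308, 283 and 258 CPM in control. They also overlapped without the most abundant leucine fragment, at 210, 232 and 232 CPM in CNV and 217, 202 and 204 CPM in control. Serine fragments summed to 506, 625 and 748 CPM in CNV and 581, 748 and 661 CPM in control. The spread over CNV pools, an SD of 121 CPM, was larger than the difference between the means of 627 and 663 CPM.

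The ratio of leucine to serine counts within a library does not depend on the scaling. It was 0.552, 0.477 and 0.396 in CNV replicates 1 to 3 and 0.478, 0.350 and 0.403 in control replicates 1 to 3. The groups overlapped, with means of 0.475 ± 0.0778 and 0.410 ± 0.0646 (SD, n = 3 each). CNV replicate 1 had the highest ratio of all pools and control replicate 2 the lowest.

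No leucine or serine fragment passed the test of CNV against control. Of the 68, 61 had enough reads to be tested (29 leucine and 32 serine), and the smallest adjusted p among them was 0.177 by edgeR (quasi-likelihood F-test, QL, with p adjusted after Benjamini and Hochberg over all 997 small RNAs tested). Over all small RNAs tested 3 passed (0.301%), all of them miRNAs. An unadjusted p under 0.05 was found for 5 of the 61 fragments (8.20%), 4 higher and 1 lower in CNV, against 17.8% of all small RNAs tested and 18.0% of all tsRNAs tested. Of all small RNAs tested 10.8% were higher and 6.92% lower at that level. With scaling by total counts, 1 fragment was higher and 1 lower at that level. DESeq2, which called 3.81% of all small RNAs, and limma-voom, which called 0.301%, also called 0 of the 61, with 5 at an unadjusted p under 0.05 in each. DESeq2 gave no adjusted p to some rare fragments, which it could therefore not call. Among them were tRF-Leu-CAG-006, tRF-Ser-AGA-010 and tRF-Ser-CGA-008. The count at that level was 1 without CNV replicate 2, 8 (2 higher and 6 lower) without CNV replicate 3 and 3 without control replicate 3.

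The fitted differences were small and went both ways. Among leucine fragments 17 of 29 had a positive log2 fold change, with a median of 0.12 and a range from -0.53 to 0.88. Among serine fragments 18 of 32 were positive, with a median of 0.05 and a range from -1.38 to 0.86. The median over all tested tsRNAs was 0.08 and over all tested small RNAs 0.05, and 56.4% of the tested tsRNAs and 53.6% of the tested small RNAs were positive. The medians of both amino acids were close to those of the rest. Scaled by total counts alone, the medians were -0.03 for leucine, -0.11 for serine and -0.11 over all small RNAs. A 2-fold fitted difference was seen for 1 of the 61 fragments, tRF-Ser-AGA-010, against 7.24% of all tsRNAs tested. The 95% interval of the fold change held 0 for 27 of the 29 leucine and 29 of the 32 serine fragments. Its reach to either side ran from 0.35 to 1.17 log2 units for leucine and from 0.36 to 1.33 for serine.

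**Figure D2:**
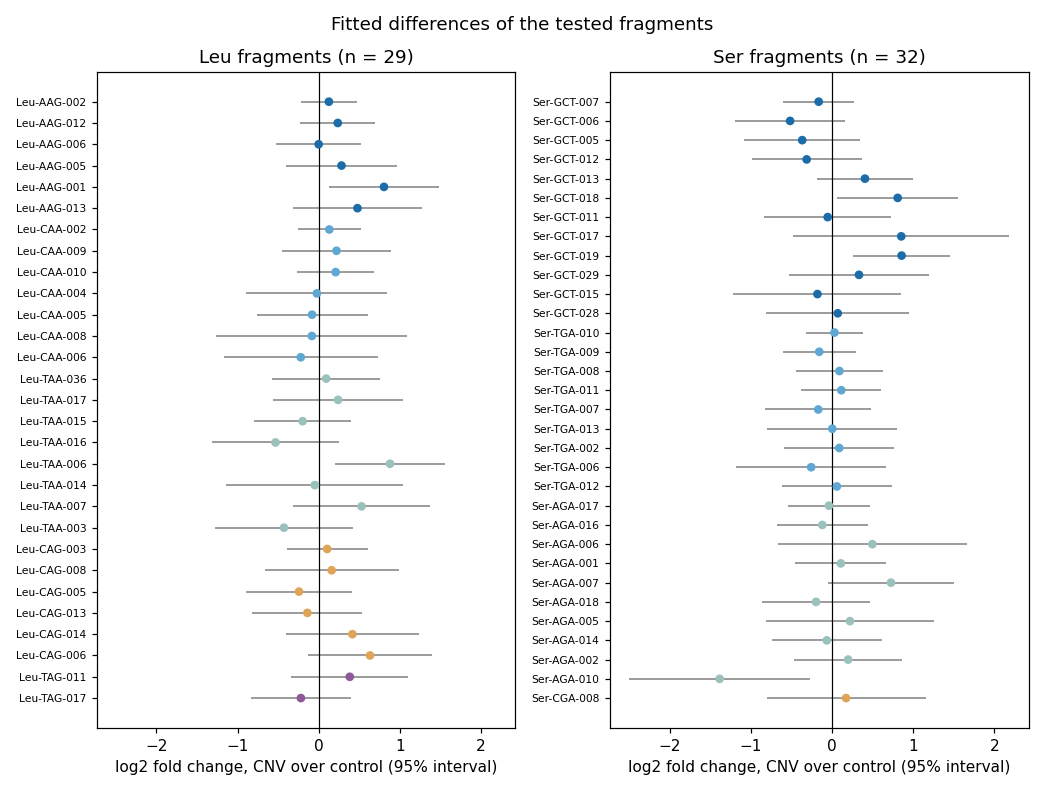
Fitted log2 fold change, CNV over control, of the 29 leucine and 32 serine fragments that were tested, with 95% intervals from edgeR's QL fit. Fragments are ordered by anticodon (point colours) and, within it, by level, highest at the top. The points lie on both sides of 0, and tRF-Ser-AGA-010 at -1.38 has the largest difference in size.

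Among the anticodons of leucine, AAG and CAA supplied most of the reads in every pool. AAG fragments held 38.9%, 35.7% and 36.4% of the leucine counts in CNV and 34.9%, 36.0% and 34.4% in control. The share in CNV replicate 1 had a Wilson 95% interval of 36.4% to 41.4%, which covers counting error only. CAA fragments held 31.4 ± 1.56% in CNV and 31.5 ± 1.99% in control, TAA fragments 15.4 ± 1.85% and 16.1 ± 0.949%, CAG fragments 13.6 ± 0.908% and 14.7 ± 1.89%, and TAG fragments 2.65 ± 0.478% and 2.60 ± 0.128% (SD, n = 3 each). The order of the anticodons AAG, CAA and TAG, by share, was the same in all 6 pools, and TAA and CAG lay close to each other. The groups overlapped for each anticodon's share. The number of genes did not follow this order, since CAG has 10 annotated genes, AAG 5, CAA 4, and TAA and TAG 3 each.

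Leucine AAG fragments were led by tRF-Leu-AAG-002, the most abundant leucine fragment. It stood at 69.3, 66.1 and 64.3 CPM in CNV pools and 61.4, 59.2 and 62.7 CPM in control pools. All CNV pools were above all control pools, but by a fold change of only 1.09 (log2 0.12, SE 0.15, 95% interval -0.22 to 0.47). Its sign turned when scaled by total counts alone, where the log2 fold change was -0.03. This fragment alone held 22.9 ± 1.67% of the leucine counts in CNV and 22.8 ± 0.728% in control. The next AAG fragment, tRF-Leu-AAG-012, was at 19.5, 19.1 and 20.1 CPM in CNV and 16.9, 19.1 and 13.7 CPM in control (log2 0.23, SE 0.20), with the highest control pool just below the lowest CNV pool. Summed over the 7 AAG rows the level was 109, 106 and 108 CPM in CNV and 97.1, 94.1 and 91.7 CPM in control. Scaled by total counts alone, the sums overlapped, at 95.9, 101 and 111 CPM in CNV and 108, 102 and 88.8 CPM in control.

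The rare fragment tRF-Leu-AAG-001 had the second smallest p among leucine fragments. It was at 5.45, 5.97 and 4.47 CPM in CNV and 4.14, 2.73 and 2.25 CPM in control, from 26 to 30 counts in CNV libraries and 11 to 38 in control libraries. All CNV pools were higher than all control pools, with a fold change of 1.74 (log2 0.80, SE 0.30). It did not pass (adjusted p = 0.227 by edgeR QL). The other tested AAG fragments had log2 fold changes from -0.0027 to 0.48, all with overlapping groups. A further AAG fragment, tRF-Leu-AAG-011, had 4 to 18 counts per library and was not tested.

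Leucine CAA fragments come from tRNAs whose precursors are spliced. The leading fragment, tRF-Leu-CAA-002, was at 42.0, 45.4 and 40.1 CPM in CNV and 35.9, 41.8 and 38.8 CPM in control (log2 0.13, SE 0.17), with overlapping groups. The 7 tested CAA fragments had log2 fold changes from -0.22 to 0.22, and none separated the groups. The TAA fragments were more even in level, with member means from 2.06 to 9.69 CPM over the 6 pools. Their most abundant fragment, tRF-Leu-TAA-036, was at 8.17, 8.56 and 13.4 CPM in CNV and 7.25, 12.1 and 8.58 CPM in control (log2 0.09, SE 0.29).

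The leucine fragment with the smallest p was tRF-Leu-TAA-006. It was at 5.64, 6.37 and 6.02 CPM in CNV and 2.93, 4.31 and 2.04 CPM in control, on 29 to 35 counts in CNV libraries and 10 to 60 in control libraries. All CNV pools were higher than all control pools, with a fold change of 1.84 (log2 0.88, SE 0.30), and its adjusted p of 0.202 by edgeR QL did not pass. Its 95% interval ran from 0.19 to 1.56 on the log2 scale. Other TAA fragments went the other way without separating the groups, such as tRF-Leu-TAA-016 at 2.92, 5.77 and 5.16 CPM in CNV and 6.56, 4.89 and 9.19 CPM in control (log2 -0.53, SE 0.34). It was singled out after its values were seen.

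Fragments of leucine CAG and TAG tRNAs were rare. The most abundant CAG fragment, tRF-Leu-CAG-003, was at 12.5, 13.5 and 9.46 CPM in CNV and 10.7, 10.9 and 11.4 CPM in control (log2 0.10, SE 0.22). The last leucine fragment named for its p, tRF-Leu-CAG-006, was at 2.14, 3.98 and 4.64 CPM in CNV and 2.24, 2.30 and 2.45 CPM in control. Here CNV replicate 1 lay below all control pools and the other CNV pools above them (log2 0.63, SE 0.33, adjusted p = 0.385 by edgeR QL). The TAG anticodon had 2 rows, and the higher, tRF-Leu-TAG-011, was at 4.09, 7.36 and 4.13 CPM in CNV and 4.83, 3.38 and 3.88 CPM in control (log2 0.38, SE 0.32). In both groups single pools set the extremes, and none of these 3 fragments separated the groups.

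**Figure D3:**
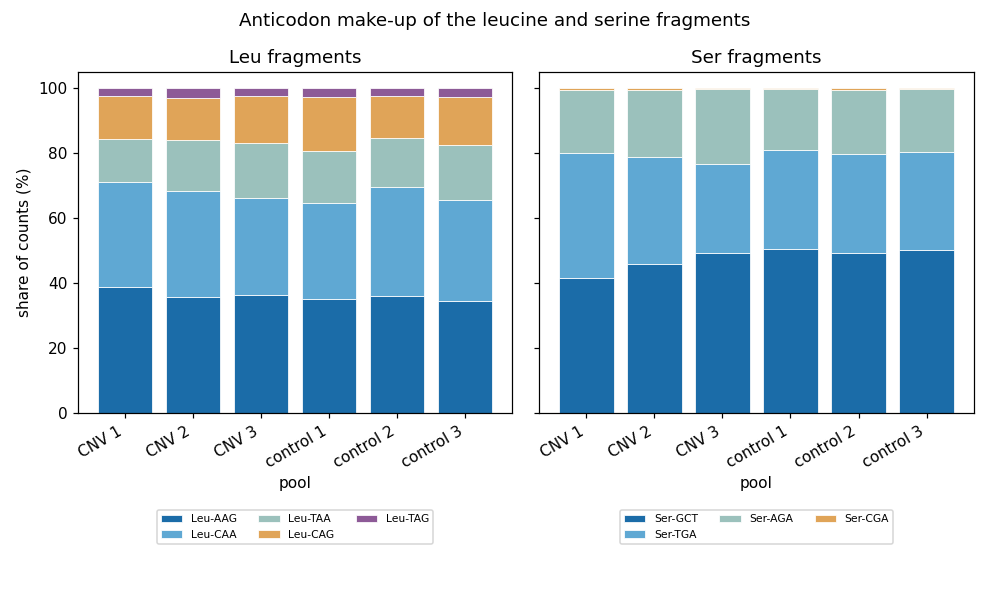
Share of the leucine fragment counts (left) and of the serine fragment counts (right) that each anticodon held in each pool, in percent, with CNV pools to the left of control pools. Among serine fragments the GCT share was 41.4% to 49.1% in CNV pools and 49.3% to 50.6% in control pools, while the leucine anticodons overlapped between groups.

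Serine fragments came mostly from tRNAs with anticodon GCT, which reads the AGC and AGU codons, and TGA, which reads codons of the UCN box. The GCT fragments held 41.4%, 45.9% and 49.1% of the serine counts in CNV and 50.6%, 49.3% and 50.0% in control. All CNV pools were lower than all control pools, by 0.204 percentage points at the nearest, and the Wilson 95% intervals of CNV replicate 3 (47.7% to 50.6%) and control replicate 2 (48.4% to 50.3%) overlapped. TGA fragments held 38.5%, 32.9% and 27.4% in CNV and 30.5%, 30.5% and 30.2% in control. AGA fragments held 19.6%, 20.7% and 23.2% in CNV and 18.6%, 19.7% and 19.6% in control. The make-up was thus nearly the same in the 3 control pools and differed among the 3 CNV pools, on both sides of control for TGA. No test of this spread was made. The most deeply sequenced pool, control replicate 2, is among those control pools, and any part of sequencing depth in the spread was not tested.

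The ratio of GCT to TGA counts within each library was 1.07, 1.39 and 1.79 in CNV replicates 1 to 3 and 1.66, 1.62 and 1.66 in control replicates 1 to 3. CNV replicate 3 lay above the control pools and CNV replicates 1 and 2 below them. Among the assigned genes RefSeq lists 8 for GCT, 7 for AGA, and 3 each for TGA and CGA. Beside these numbers TGA fragments were abundant, while the single CGA row held 0.253% to 0.538% of the serine counts in CNV and 0.155% to 0.442% in control. Mitochondrial genes are not in these numbers. Serine tRNAs with AGA, CGA and TGA anticodons are close in sequence. How reads that match several of them were assigned is not stated by the labels or file headers, so the split between these anticodons is uncertain.

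The most abundant of all the fragments was tRF-Ser-GCT-007. It stood at 101, 140 and 154 CPM in CNV pools and 132, 158 and 152 CPM in control pools (log2 -0.16, SE 0.19), with CNV replicate 1 the lowest of all. The next GCT fragment, tRF-Ser-GCT-006, was at 43.0, 64.3 and 105 CPM in CNV and 88.2, 113 and 103 CPM in control, a fold change of 0.700 (log2 -0.52, SE 0.30). CNV replicates 1 and 2 lay below every control pool and CNV replicate 3 within the control range, and the adjusted p was 0.428 by edgeR QL. As a share of the serine counts it held 8.49% to 14.0% in CNV and 15.0% to 15.5% in control, without overlap. A neighbour in the numbering, tRF-Ser-GCT-005, had its CNV pools in the same order, at 15.0, 28.7 and 37.8 CPM in CNV and 30.7, 40.9 and 33.3 CPM in control (log2 -0.37, SE 0.32). It was singled out after its values were seen.

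Within a library, the count of tRF-Ser-GCT-006 over that of tRF-Ser-GCT-007 was 0.428, 0.459 and 0.681 in CNV and 0.666, 0.714 and 0.676 in control. CNV replicates 1 and 2 stood below the other 4 pools, and CNV replicate 3 lay among the control pools. For the leading TGA fragments, tRF-Ser-TGA-009 over tRF-Ser-TGA-010, the ratio was 0.457, 0.605 and 0.538 in CNV and 0.551, 0.683 and 0.568 in control. For the AGA fragments tRF-Ser-AGA-016 over tRF-Ser-AGA-017 it was 0.508, 0.566 and 0.536 in CNV and 0.541, 0.622 and 0.536 in control. Both of these ratios overlapped between groups. The pairs were chosen after their values were seen.

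The smallest p of all the leucine and serine fragments was that of tRF-Ser-GCT-019, at 4.28, 4.38 and 5.16 CPM in CNV and 2.07, 2.66 and 2.86 CPM in control. All CNV pools were higher than all control pools on 22 to 30 counts in CNV libraries and 12 to 37 in control libraries, with a fold change of 1.81 (log2 0.86, SE 0.26). Its adjusted p was 0.177 by edgeR QL, which did not pass. The related tRF-Ser-GCT-018 was at 6.42, 11.9 and 11.3 CPM in CNV and 3.97, 7.40 and 5.10 CPM in control (log2 0.81, SE 0.33, adjusted p = 0.253 in the same test). Its CPM overlapped between groups, since CNV replicate 1 lay below control replicate 2. Its share of the serine counts did not, at 1.27% to 1.91% in CNV and 0.683% to 0.991% in control. Of the 12 tested GCT fragments 6 had a positive and 6 a negative log2 fold change, and the 3 most abundant were all negative.

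Fragments of the serine TGA tRNA overlapped between groups. The leading fragment, tRF-Ser-TGA-010, was at 93.2, 83.6 and 94.9 CPM in CNV and 79.9, 94.2 and 91.7 CPM in control (log2 0.03, SE 0.16, 95% interval -0.32 to 0.39). The 9 tested TGA fragments had log2 fold changes from -0.26 to 0.12, and none separated the groups. Their sum was 195, 206 and 205 CPM in CNV and 177, 228 and 199 CPM in control. The untested tRF-Ser-TGA-016, singled out after its values were seen, had 21, 22 and 8 counts in CNV libraries and 6, 13 and 8 in control libraries, or 4.09, 4.38 and 1.38 CPM and 1.04, 0.935 and 1.63 CPM. In the deposited per-million column it reached 20 in CNV pools only. The tsRNA list favours rows high in some pool, so its higher CNV values were favoured by the listing itself.

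Serine AGA fragments held the largest fitted difference in size among the 61. The leading fragment, tRF-Ser-AGA-017, was at 36.0, 39.4 and 60.0 CPM in CNV and 44.7, 48.5 and 45.7 CPM in control (log2 -0.04, SE 0.22). The fragment tRF-Ser-AGA-006, chosen after its values were seen, ran from 12.8 to 35.1 CPM in CNV and from 6.04 to 25.8 CPM in control, an SD of 11.4 and 10.4 CPM. The rare tRF-Ser-AGA-010 was at 0.584, 0.995 and 2.06 CPM in CNV and 1.90, 4.39 and 3.06 CPM in control, on 3, 5 and 12 counts in CNV libraries and 11, 61 and 15 in control libraries. It was the single fragment lower in CNV at an unadjusted p under 0.05 (log2 -1.38, SE 0.49), and its adjusted p was 0.217 by edgeR QL. Without CNV replicate 3 the log2 fold change was -2.09, with an adjusted p of 0.0801 by edgeR QL. In that fit tRF-Ser-GCT-006 was at -0.988 with an adjusted p of 0.0706, and the smallest adjusted p of all the fragments was 0.0587 (same test). The CPM of tRF-Ser-AGA-010 overlapped between groups, since CNV replicate 3 lay above control replicate 1. As a share of the serine counts it held 0.115% to 0.276% in CNV and 0.327% to 0.587% in control, without overlap. The neighbouring tRF-Ser-AGA-009, not tested for its few reads, had 1, 3 and 9 counts in CNV libraries and 7, 39 and 16 in control libraries. Without a filter on low counts both were called lower in CNV, with adjusted p of 0.0387 for tRF-Ser-AGA-010 and 0.0441 for tRF-Ser-AGA-009 by edgeR QL. That fit called 3.77% of 2334 small RNAs. In the deposited per-million column both fragments reached 20 in control pools only. The tsRNA list favours rows high in some pool, so lower CNV values of these 2 rows were favoured by the listing itself. The only CGA fragment, tRF-Ser-CGA-008, had 11 to 16 counts in CNV libraries and 5 to 46 in control libraries (log2 0.17, SE 0.43).

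**Figure D4:**
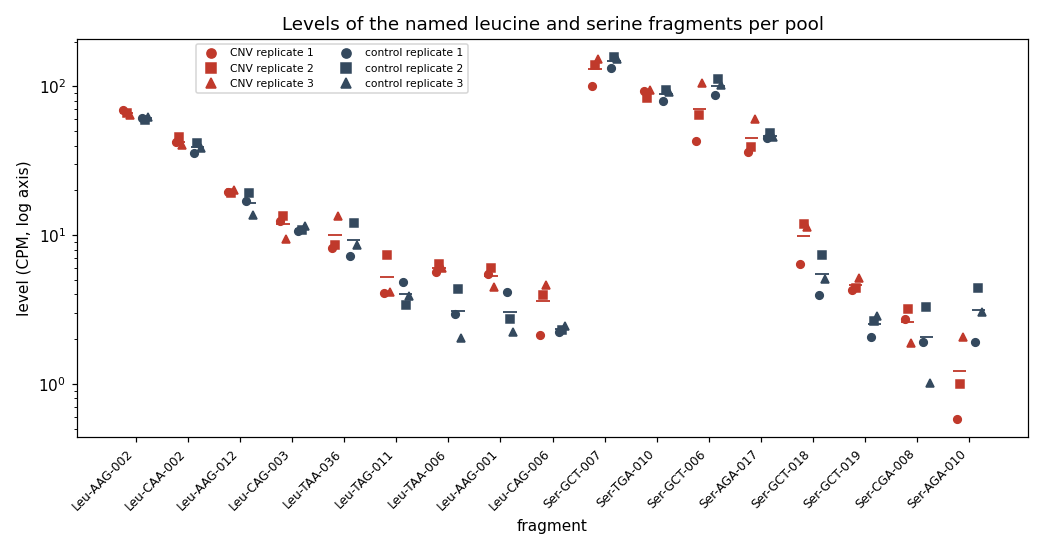
Level of the 17 leucine and serine fragments chosen by level, anticodon and p, in CPM on a log axis, ordered by mean level within each amino acid. Each point is a pool (CNV red and on the left, control dark), and the line is the mean of 3 pools. The groups are apart for Leu-AAG-002, Leu-AAG-012, Leu-TAA-006, Leu-AAG-001 and Ser-GCT-019, with CNV higher in each, and overlap for the others.

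The groups did not overlap for 6 of the 61 tested fragments, all higher in CNV. They were tRF-Leu-AAG-001, tRF-Leu-AAG-002, tRF-Leu-AAG-012, tRF-Leu-TAA-006, tRF-Ser-GCT-013 and tRF-Ser-GCT-019. Among all small RNAs tested, 11.4% were higher and 8.93% lower without overlap in the same way. Scaled by total counts alone, 3 fragments remained apart, tRF-Leu-AAG-001, tRF-Leu-TAA-006 and tRF-Ser-GCT-019, and 0 were lower, against 7.32% higher and 12.8% lower of all small RNAs tested. Of the last fragment not yet described, tRF-Ser-GCT-013, the level was 9.53, 9.35 and 9.63 CPM in CNV and 7.76, 8.63 and 4.70 CPM in control (log2 0.41, SE 0.26).

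The order of the fragments by abundance was kept across pools. Spearman's rho of the counts of the 68 fragments between libraries was 0.789 to 0.915 over the 15 pairs, a description across fragments that share libraries. The 3 most abundant fragments held 44.1% of the leucine counts and 48.8% of the serine counts over all libraries. A mean above 10 CPM was reached by 6 leucine and 11 serine fragments. The median coefficient of variation over the tested leucine fragments was 18.2% among CNV pools and 27.2% among control pools, and over the serine fragments 29.1% and 20.4%. The 7 fragments with too few reads to be tested had 0 to 39 counts per library.

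Pieces of these tRNAs were also listed as tiRNAs. The single leucine tiRNA was at 14.4, 13.1 and 8.60 CPM in CNV and 13.3, 4.82 and 8.58 CPM in control. The 2 serine tiRNAs summed to 266, 267 and 365 CPM in CNV and 336, 451 and 360 CPM in control, with CNV replicates 1 and 2 below the control pools and CNV replicate 3 among them. The selenocysteine tRNA, which also has a long variable arm, had 1 fragment row with too few reads to be tested.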

How the data were processed

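The authors' deposited tables give a read count per mature miRNA and per tsRNA for each of 6 libraries (3 CNV, 3 control). The submitters' processing notes name Bowtie. Version, genome build and the handling of reads shared by several tRNAs are not stated in those notes or the labels. The deposited per-million column rests on different totals for miRNAs and tsRNAs, so it was treated as a score and not tested. Each fragment here reached at least 21.5 in it in some library, so the list itself favours rows high in some pool. Of the 68, 8 reached 20 in control pools only, tRF-Ser-AGA-009 and tRF-Ser-AGA-010 among them. Another 4, tRF-Ser-TGA-016 among them, reached it in CNV pools only. No leucine or serine row repeated the counts of another.

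Counts were fitted in R 4.3.3 with edgeR 4.0.16 over all small RNAs that passed filterByExpr (minimum count 10, total 15), with TMM factors and no covariate, at a threshold of 0.05 after Benjamini-Hochberg adjustment over 997. SE is the log2 fold change over the root of the F statistic. Alternatives used DESeq2 1.42.0, limma 3.58.1, other scalings and filters, and left out each library. On simulated counts for the 997 small RNAs with 200 changed, 59.4% of the 2-fold and 92.8% of the 4-fold changes were recovered, and 4.60% of calls were false. The changed RNAs were drawn from miRNAs and tsRNAs at all levels, and each row was simulated independently. Recovery for the 68 fragments, with a median level of 5.09 CPM, was not measured. Of 430 RefSeq tRNA genes 402 had amino acid and anticodon read from their symbols. The fragments and lists were chosen with earlier results of these data known. Named fragments are the 3 most abundant and the 3 with the smallest p of each amino acid and the most abundant of each anticodon. The rule also took those at 10 CPM or more whose groups did not overlap when scaled by total counts alone, and none met it. Sums, shares and ratios were given without a test.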

Additional observations from a re-analysis of the deposited data

How the results depend on the processing

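Under each of the 15 alternatives to the reported fit, 0 leucine fragments were called, though DESeq2 gave some fragments no adjusted p. The count of called serine fragments, and of both together, was 2 with no filter on low counts and 0 under the other 14. Those 2 rows reached 20 in the deposited per-million column in control pools only. The median log2 fold change of leucine fragments (0.12) was -0.025 when scaled by total counts alone, 0.039 with tsRNA rows alone and 0.038 with no filter, and it ran from -0.0025 to 0.14 when libraries were left out in turn. The median of serine fragments (0.05) was -0.16 with a minimum mean of 20 CPM, which left 10 fragments of leucine and serine together. The mean log2 difference of the summed leucine level (0.12) was -0.030 when scaled by total counts alone. As a share of the listed tsRNA counts it was -0.67, against -0.88 for the summed serine level (-0.09 as reported). The causes were not tested.

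Signs near 0 turned. Scaled by total counts alone, the log2 fold change was -0.025 for tRF-Leu-AAG-002, -0.020 for tRF-Leu-CAA-002, -0.053 for tRF-Leu-CAG-003, -0.0445 for tRF-Leu-TAA-036 and -0.11 for tRF-Ser-TGA-010. The last was -0.0014 with relative log expression factors, -0.055 with tsRNA rows alone, -0.0018 with DESeq2 and -0.050 with no filter. With libraries left out in turn it ran from -0.086 to 0.040, that of tRF-Leu-CAG-003 from -0.0565 to 0.16, of tRF-Leu-TAA-036 from -0.25 to 0.26, of tRF-Ser-AGA-017 from -0.38 to 0.093 and of tRF-Ser-CGA-008 from -0.12 to 0.69.

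The replicate numbers are shared by the groups. The deviations of same-numbered pools correlated at 0.287, 0.03 and 0.172 over 997 small RNAs. Of all pairings 0.287 and 0.172 were the highest, and unlike-numbered pools ran from -0.257 to 0.152. The labels describe no pairs, so the reported fit used none. Whether same-numbered pools share a batch was not tested. Control replicate 2 correlated best with CNV replicate 3 (0.152). With a replicate block 0 of the 61 fragments were called, with 9 at an unadjusted p under 0.05, while calls over all small RNAs were 36 against 3. The smallest adjusted p among the fragments was then 0.0913, against 0.177 without the block (edgeR QL in both). At the depth of these libraries the rarest fragments rest on fewer than 10 counts in a library, which limits them to large changes.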
